A study of Mus musculus with 5 samples.

Results

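The clustered protocadherins are cell-surface adhesion proteins whose genes stand side by side on mouse chromosome 18 in 3 clusters, alpha, beta and gamma. They were followed here in 5 RNA libraries of hair follicle stem cells. Members were the protein-coding genes of the deposited expression table whose symbol starts with Pcdha, Pcdhb or Pcdhg. The rule took 50 of the table's 30840 features, of which 8 were alpha, 21 beta and 21 gamma genes. The gamma group was made up of 12 A-type, 6 B-type and 3 C-type genes, and the alpha group held 1 C-type gene, Pcdhac2. The rule used no measured value. Pcdhb1 and the other alpha genes are not analysed here, and Pcdhgb8, which the table lists as a polymorphic pseudogene, is not a member.

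Each alpha and gamma variable exon has a promoter of its own and is spliced to constant exons that its whole cluster shares, whereas each beta gene is a single exon with no constant part. The encoded proteins bind the same isoform on a neighbouring cell. They are best known in neurons, where each cell uses its own combination of isoforms as an identity and sister branches of a cell avoid each other. Promoter choice there depends on CTCF, cohesin and DNA methylation, and the C-type genes follow other rules than the rest. The promoters are also known targets of repressive chromatin regulators such as Smchd1.

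The comparison asks how these genes stand when the catalytic subunits of Polycomb repressive complex 1 (PRC1), which places ubiquitin on histone H2A, are taken from the cells. The PRC1 i2KO group (3 libraries, numbered 1 to 3) had the genotype K15-CrePR1:Ring1a-/-, Ring1bflox/flox. The Control group (2 libraries, numbered 2 and 3) was Ring1a-/-, Ring1bflox/flox without the Cre transgene. Ring1a was therefore absent by genotype from both groups. In K15-CrePR1 mice the keratin 15 promoter drives a Cre that works only with RU-486, so a comparison of the groups includes the transgene as well as the deletion. RU-486 (1%) was applied topically to all mice once a day, for 10 days beginning on postnatal day 50. At postnatal day 70, cells with EpCAM, CD34 and high α6-integrin but no Sca1 were sorted from skin, and 50000 cells gave the polyadenylated RNA of a library. Nothing in the labels says that each library is a different animal. The p-values therefore rest on differences among these libraries, part or all of which could be technical.

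Total counts were 25461925, 43307892 and 34669975 in PRC1 i2KO 1, 2 and 3, against 42916441 and 11626313 in Control 2 and 3. A single count was worth 0.0226 to 0.0458 CPM (counts scaled to edgeR's TMM-adjusted library sizes, not to the totals above) in the PRC1 i2KO libraries and 0.0203 and 0.0793 CPM in the controls. All 12 bulge stem cell markers, Krt15 and Cd34 among them, had counts in every library. Rnf2, the gene of Ring1b, had 39.9, 33.1 and 36.4 CPM in PRC1 i2KO libraries, against 27.7 and 37.5 CPM in Control libraries (edgeR adjusted p = 0.870). Ring1, the gene of Ring1a, had 2.29, 1.58 and 3.67 CPM in PRC1 i2KO libraries, against 1.87 and 5.0 CPM in Control libraries (edgeR adjusted p = 0.884). A count over a whole gene includes the exons that a floxed or null allele keeps, so these values do not check the deletion.

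The 3 clusters differed widely in level. In deposited TPM, which allows for transcript length, the median over members of the mean over all 5 libraries was 0.020 for alpha, 0.214 for beta and 1.26 for gamma genes. The gamma genes took 77.9% to 89.6% of all member counts in the PRC1 i2KO libraries and 81.1% and 82.9% in the controls. Of the 50 members, 32 had a count in every library: 0 alpha, 15 beta and 17 gamma genes. After edgeR's filter on low counts, 36 members could be tested, 16 beta and 20 gamma genes, while all 8 alpha members fell below it. The rest of the text gives those 8, the 5 untested beta genes and the untested Pcdhga2 by their counts.

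**Figure D1:**
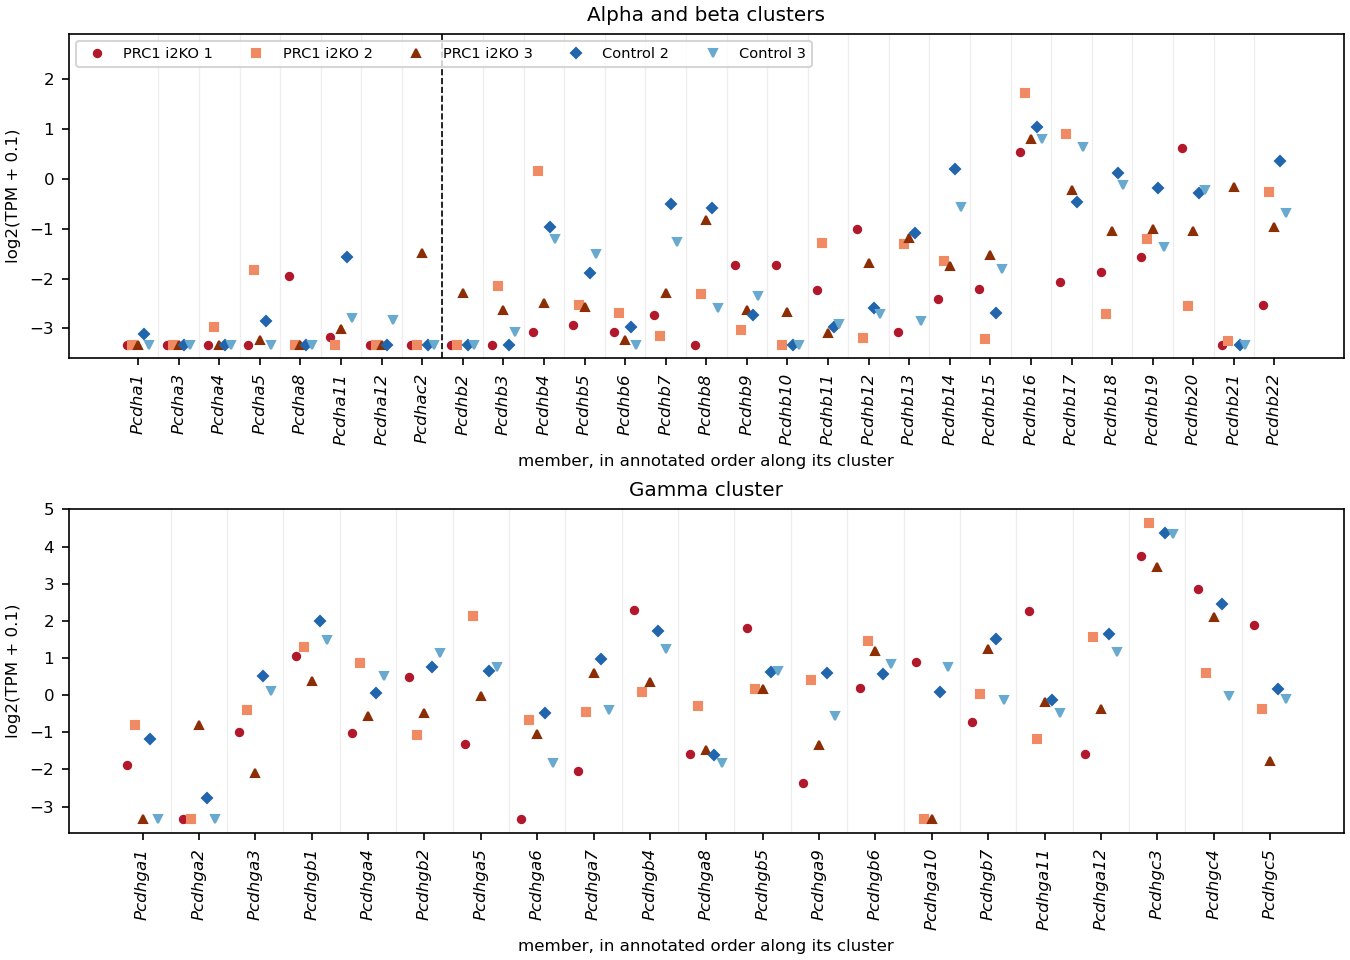
Deposited level of each member in each library, as log2 of TPM + 0.1 on the vertical axis, with members in cluster order on the horizontal axis. A point is 1 library, PRC1 i2KO in red tones left of Control in blue. Pcdhgc3 stands highest, between 10.8 and 24.6 TPM in the PRC1 i2KO libraries and at 20.0 and 20.5 TPM in the controls.

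Per length, the most abundant member was Pcdhgc3 in every library. Its protein is a C-type gamma isoform known to bind Axin1 and dampen Wnt signalling in cell culture. It had 13.4, 24.6 and 10.8 TPM in the PRC1 i2KO libraries, against 20.5 and 20.0 TPM in the controls. It took 31.3%, 52.0% and 38.6% of the gamma cluster's counts in the PRC1 i2KO libraries, compared with 39.7% and 47.5% for Control libraries. Next by mean TPM over the 5 libraries came Pcdhgc4 (3.81 TPM), Pcdhgb4 (2.48 TPM), Pcdhgb1 (2.42 TPM) and the first beta gene in that order, Pcdhb16 (1.95 TPM). The order of the levels below Pcdhgc3 was not firm, since Pcdhgc4 alone ranged over 1.43 to 7.20 TPM in the PRC1 i2KO libraries and 0.878 to 5.37 TPM in the controls.

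Levels also went with position. Beta genes late in the cluster were higher per length than early ones, with a median of 0.480 TPM from Pcdhb14 onward and 0.109 TPM up to Pcdhb13. Genes from Pcdhb14 onward held 83.5%, 82.0% and 83.9% of beta counts in the PRC1 i2KO libraries, compared with 84.5% and 88.8% for Control libraries. Of summed beta TPM they held 77.4%, 75.8% and 76.8% in the PRC1 i2KO libraries, and 76.1% and 83.8% in the controls. Across genes, the Spearman correlation of cluster order with mean TPM was 0.69 over 21 beta genes and 0.53 over 21 gamma genes. These are descriptions, because neighbouring genes come from the same libraries and the gamma genes share exons. The last gamma genes are the 3 C-type genes, which include the highest member.

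Between the groups, 0 of 36 tested members were higher and 0 were lower by edgeR's quasi-likelihood test at an adjusted p of 0.05. Over all 22181 genes tested, 0.126% were called higher and 0% lower. At an unadjusted p under 0.05, 0 members were higher and 2 were lower, the beta genes Pcdhb14 and Pcdhb7, against 7.43% of all genes higher and 3.51% lower. DESeq2 called 0 members higher and 1 lower, Pcdhb14. Its fit held 49 members, some of them without an adjusted p. Of the 21128 genes with a DESeq2 adjusted p, it called 3.57% higher and 0.786% lower. The limma-voom fit called 0 members in each direction, and limma on deposited TPM also called 0. The smallest edgeR adjusted p among members was 0.287.

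The members' log2 fold changes of PRC1 i2KO over Control ran from -2.59 to 2.46, 17 above 0 and 19 below. Their median was -0.07, beside 0.01 over all genes tested. It was 0.01 for the 16 beta genes and -0.07 for the 20 gamma genes. The median changed sign with the setting, between -0.58 and 0.24 over all those tried, so no direction is given for the family. Medians above 0 came from fits that held 43 to 49 members. Fits that held 34 to 36 members gave medians below 0. Across genes, fold change had a Spearman correlation with cluster order of -0.06 over 16 beta genes and 0.35 over 20 gamma genes.

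**Figure D2:**
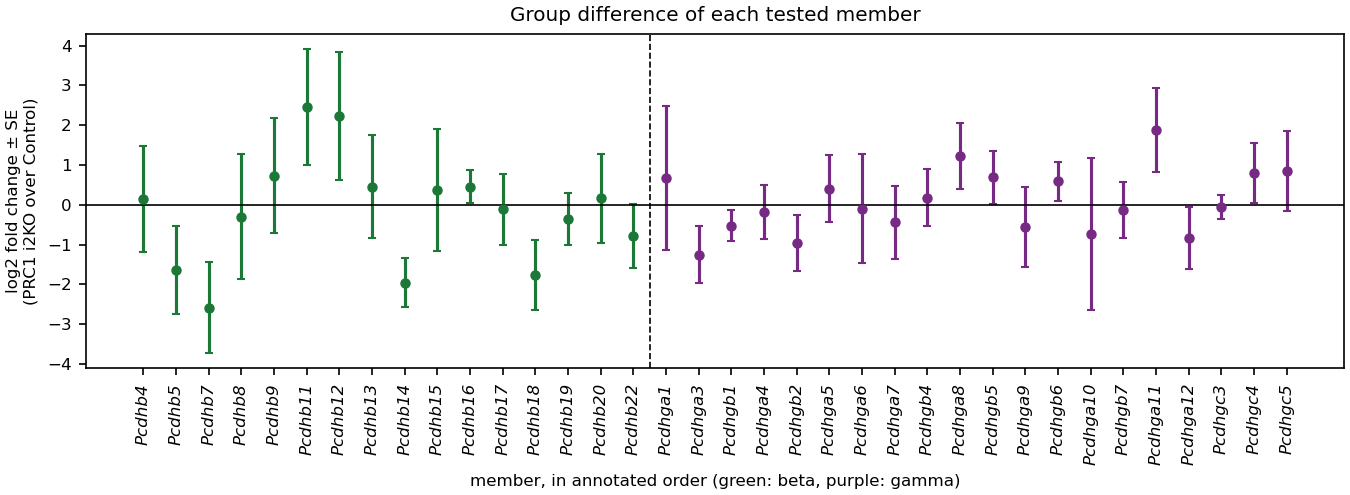
Log2 fold change of PRC1 i2KO over Control for each of the 36 tested members in cluster order, with error bars of 1 standard error from edgeR. The values run from -2.59 for Pcdhb7 to 2.46 for Pcdhb11, and none passed an adjusted p of 0.05.

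Pcdhb14 had the smallest p among the members. It had 1.01, 1.96 and 2.09 CPM in the PRC1 i2KO libraries, against 7.51 and 5.63 CPM in the controls. Both controls lay above all 3 PRC1 i2KO libraries. The log2 fold change was -1.96 ± 0.61 (SE), with a 95% interval of -3.34 to -0.58, an unadjusted p of 0.0107 and an edgeR adjusted p of 0.287. DESeq2 gave an adjusted p of 0.0250. Leaving out each library in turn kept the log2 fold change between -2.14 and -1.70. With PRC1 i2KO 1, 2 or 3 left out, the edgeR adjusted p was 0.432, 0.298 and 0.348, so none of these fits called it.

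Pcdhb7 had 0.229, 0.0451 and 0.443 CPM in the PRC1 i2KO libraries, which were 5, 2 and 14 counts, against 1.69 and 1.19 CPM in the controls, which were 83 and 15 counts. The groups did not overlap, at a log2 fold change (± SE) of -2.59 ± 1.14 (edgeR unadjusted p = 0.0496, adjusted p = 0.456). Pcdhb18 had 1.15, 0.271 and 2.34 CPM in the PRC1 i2KO libraries, against 4.02 and 4.52 CPM in the controls. Its log2 fold change was -1.77 ± 0.88 (SE; edgeR adjusted p = 0.514). In all, 7 of 36 members had every PRC1 i2KO library below both controls, namely Pcdhb5, Pcdhb7, Pcdhb14, Pcdhb18, Pcdhga3, Pcdhgb1 and Pcdhgb2. The same held for 15.3% of all genes tested. Only Pcdhga8 had every PRC1 i2KO library above both controls, where 14.6% of all genes did.

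Pcdhb16 led the beta cluster per length in every library but PRC1 i2KO 1, where Pcdhb20 stood at 1.43 TPM and Pcdhb16 at 1.36 TPM. Pcdhb16 had 9.21, 16.9 and 10.3 CPM in the PRC1 i2KO libraries, against 8.30 and 9.44 CPM in the controls. The groups overlapped, and the log2 fold change was 0.46 ± 0.42 (SE; edgeR adjusted p = 0.754). Its share of beta counts was 35.1%, 39.5% and 26.4% in the PRC1 i2KO libraries, compared with 19.8% and 22.9% for Control libraries. These shares do not overlap, but a share also moves with the other beta genes and was not tested.

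Other beta genes also varied between libraries. Pcdhb20 had 6.51, 0.248 and 1.64 CPM in the PRC1 i2KO libraries, against 2.07 and 2.94 CPM in the controls, so the controls lay inside a 26.2-fold range. Pcdhb17 had 0.825, 8.28 and 4.30 CPM in the PRC1 i2KO libraries, against 2.36 and 7.46 CPM in the controls. Pcdhb22, the last beta gene, had 0.642, 4.92 and 3.35 CPM in the PRC1 i2KO libraries, against 6.38 and 3.89 CPM in the controls. PRC1 i2KO 1 was thus the highest library for Pcdhb20 and the lowest for the other two. Their edgeR adjusted p-values were 0.976, 0.979 and 0.785. Pcdhb4 stood at 3.79 CPM in PRC1 i2KO 2 and at 0.0917 and 0.348 CPM in PRC1 i2KO 1 and 3, against 1.24 and 1.35 CPM in the controls.

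A beta gene that edgeR did not test showed the same on a larger scale. Pcdhb21 had 0, 1 and 143 counts in PRC1 i2KO 1, 2 and 3, against 0 and 0 counts in the controls. In PRC1 i2KO 3 that was 4.52 CPM, second only to Pcdhb16 among beta genes per length. DESeq2, which ran without edgeR's filter, gave Pcdhb21 a log2 fold change of 7.68 (adjusted p = 0.0880), which rests on PRC1 i2KO 3. Where a library had 0 counts, the floor of 3 counts allows up to 0.137 CPM in PRC1 i2KO 1 and up to 0.0609 and 0.238 CPM in Control 2 and 3. Such floors cover counting error only. Pcdhb2, the first beta gene measured, had 11 counts in PRC1 i2KO 3 and 0 in every other library. The other 3 untested beta genes, Pcdhb3, Pcdhb6 and Pcdhb10, had 21 counts or fewer in each library.

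In the gamma cluster, Pcdhgc3 did not differ beyond its spread. It had 74.0, 115 and 56.0 CPM in the PRC1 i2KO libraries, against 73.0 and 96.0 CPM in the controls. The mean was 81.6 ± 30.1 CPM in PRC1 i2KO and 84.5 ± 16.3 CPM in Control (SD, n = 3 and 2). The log2 fold change was -0.05 ± 0.30 (SE; edgeR adjusted p = 0.974), and its 95% interval ran from -0.73 to 0.64, which leaves room for changes in either direction.

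The other C-type gamma genes varied more. Pcdhgc4, which mouse interneurons need for survival, had 20.6, 3.72 and 12.2 CPM in the PRC1 i2KO libraries, against 10.8 and 2.94 CPM in the controls. Pcdhgc5, the last gene of the cluster, had 22.2, 3.41 and 1.27 CPM in the PRC1 i2KO libraries, against 4.87 and 5.0 CPM in the controls. PRC1 i2KO 1 was the highest library for both genes. The log2 fold changes were 0.80 ± 0.75 for Pcdhgc4 and 0.85 ± 1.01 for Pcdhgc5 (SE; edgeR adjusted p = 0.761 and 0.820). Without PRC1 i2KO 1, that of Pcdhgc5 was -1.07.

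Among A-type and B-type gamma genes, the leading members differed between the PRC1 i2KO libraries. Per length, PRC1 i2KO 1 was led by Pcdhgb4 (4.80 TPM), Pcdhga11 (4.69 TPM) and Pcdhgb5 (3.42 TPM). PRC1 i2KO 2 was led by Pcdhga5 (4.24 TPM), Pcdhga12 (2.87 TPM) and Pcdhgb6 (2.65 TPM), and PRC1 i2KO 3 by Pcdhgb7 (2.28 TPM), Pcdhgb6 (2.18 TPM) and Pcdhga7 (1.42 TPM). The first 3 places of PRC1 i2KO 1 shared 0 members with those of the other two, and PRC1 i2KO 2 and 3 shared 1. In both controls the same 3 genes led in the same order, Pcdhgb1 (3.92 and 2.7 TPM), Pcdhgb4 (3.2 and 2.26 TPM) and Pcdhga12 (3.06 and 2.13 TPM). Among beta genes the controls were less alike, sharing 1 of their first 3, while pairs of PRC1 i2KO libraries shared 1 or 2.

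**Figure D3:**
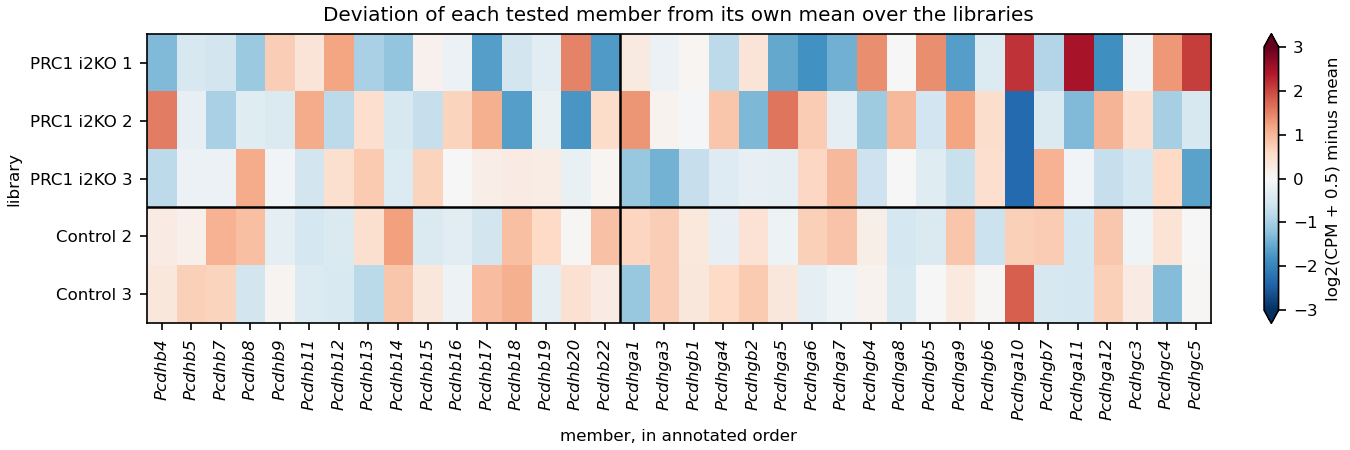
Each tested member (columns, in cluster order, beta left of the line and gamma right of it) in each library (rows, PRC1 i2KO above Control), coloured by log2 of CPM + 0.5 less the gene's mean over the 5 libraries. Deep red cells fall on different genes in PRC1 i2KO 1, 2 and 3, such as Pcdhga11 at 28.9 CPM in PRC1 i2KO 1 and Pcdhga5 at 20.0 CPM in PRC1 i2KO 2.

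Pcdhga11, an A-type gene late in the cluster, had 28.9, 1.62 and 4.49 CPM in the PRC1 i2KO libraries, against 3.17 and 3.17 CPM in the controls. Only PRC1 i2KO 1 stood apart, and PRC1 i2KO 2 was below both controls. The log2 fold change was 1.87 ± 1.05 (SE; edgeR adjusted p = 0.574), and it was -0.05 without PRC1 i2KO 1.

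Pcdhgb4 and Pcdhgb5 had the same shape. Pcdhgb4 had 22.7, 3.72 and 5.25 CPM in the PRC1 i2KO libraries, against 9.50 and 9.04 CPM in the controls. Pcdhgb5 had 20.5, 4.83 and 5.73 CPM in the PRC1 i2KO libraries, against 5.40 and 7.46 CPM in the controls. PRC1 i2KO 1 was again far above the other libraries. Pcdhga5 and Pcdhga12 ran the other way, lowest in PRC1 i2KO 1 and highest in PRC1 i2KO 2. Pcdhga5 had 1.83, 20.0 and 5.06 CPM in the PRC1 i2KO libraries, against 5.60 and 8.09 CPM in the controls, and Pcdhga12 had 1.33, 12.6 and 3.51 CPM, against 10.8 and 10.2 CPM. Neither group comparison passed (edgeR adjusted p = 0.912 for Pcdhga5 and 0.760 for Pcdhga12).

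Pcdhga10 had counts in some libraries and none in others. It had 235, 0 and 0 counts in PRC1 i2KO 1, 2 and 3, against 181 and 104 counts in Control 2 and 3. On the CPM scale that was 10.8, 0 and 0 in the PRC1 i2KO libraries, against 3.67 and 8.25 for Control. The 0 counts allow up to 0.0677 CPM in PRC1 i2KO 2 and 0.0949 CPM in PRC1 i2KO 3, so these libraries lay below the lower control by far more than counting error. Those limits do not cover how reads of shared exons were divided. In GENCODE M21, 44.8% of this gene's exonic bases also belong to another gene of the clusters. The log2 fold change of the group was -0.74 ± 1.91 (SE; edgeR adjusted p = 0.932). Pcdhga1, the first gamma gene, also had a library at 0 in each group, with 0.825, 2.23 and 0 CPM in PRC1 i2KO libraries and 1.22 and 0 CPM in controls. The untested Pcdhga2 had 85 counts in PRC1 i2KO 3, none in PRC1 i2KO 1 and 2, and 9 and 0 counts in the controls.

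In a few gamma genes the groups did not overlap. Pcdhgb1, the first B-type gene, had 11.5, 10.9 and 6.71 CPM in the PRC1 i2KO libraries, against 13.9 and 14 CPM in the controls. All PRC1 i2KO values were below both controls, at a log2 fold change (± SE) of -0.53 ± 0.38 (edgeR adjusted p = 0.684). Pcdhga3 had 2.47, 3.14 and 0.759 CPM in the PRC1 i2KO libraries, against 5.10 and 5.08 CPM in the controls. Its log2 fold change was -1.26 ± 0.71 (SE; edgeR adjusted p = 0.578). Pcdhga8 had 1.47, 3.41 and 1.49 CPM in the PRC1 i2KO libraries, against 0.873 and 0.952 CPM in the controls. It was the member higher in every PRC1 i2KO library, at a log2 fold change (± SE) of 1.22 ± 0.83 (edgeR adjusted p = 0.655).

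The alpha genes were close to the limit of these libraries. Their summed counts were 25, 47 and 63 in PRC1 i2KO 1, 2 and 3, against 42 and 5 in Control 2 and 3. Most of each PRC1 i2KO sum came from a single gene, and it was another one in each library. Pcdha8 had 24 counts in PRC1 i2KO 1 and 0 elsewhere, Pcdha5 had 42 counts in PRC1 i2KO 2, and Pcdhac2, a C-type gene that serotonergic axons of the mouse need to spread evenly, had 59 counts in PRC1 i2KO 3 and 0 elsewhere. In Control 2 the leading alpha gene was Pcdha11, with 31 counts. Pcdha1, Pcdha4 and Pcdha12 had 5 counts or fewer in all, and Pcdha3 had no count in any library. No alpha gene passed edgeR's filter. DESeq2, which ran without it, gave an adjusted p for Pcdhac2 alone (0.394), and the fits without a filter called 0 alpha genes.

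Summed over a cluster, the libraries differed less than their members did. Gamma counts summed to 236, 221 and 145 CPM in the PRC1 i2KO libraries, against 184 and 202 CPM in the controls. The mean gamma sum was 201 ± 48.7 CPM in PRC1 i2KO and 193 ± 13 CPM in Control (SD, n = 3 and 2), a log2 ratio of 0.06. The controls lay inside the range of the PRC1 i2KO libraries. Beta counts summed to 26.3, 42.7 and 39.3 CPM in the PRC1 i2KO libraries, against 41.9 and 41.3 CPM in the controls. The mean beta sum was 36.1 ± 8.68 CPM in PRC1 i2KO and 41.6 ± 0.361 CPM in Control (SD), a log2 ratio of -0.20, and it rested on the lower PRC1 i2KO 1. The alpha sums were 1.14, 1.06 and 1.99 CPM in the PRC1 i2KO libraries, against 0.853 and 0.397 CPM in the controls, at a log2 ratio of 1.16 that rests on few counts. In bulk samples, fewer cells of a type and less RNA per cell cannot be told apart.

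In deposited TPM the log2 ratio of the gamma sum was -0.23, so its sign depended on the scale. That of the beta sum was -0.37 and that of the alpha sum 0.24. By type, gamma A genes summed to 50.9, 61.5 and 29.8 CPM in the PRC1 i2KO libraries, against 45.7 and 48.6 CPM in the controls. Gamma B genes summed to 68.7, 37.4 and 45.9 CPM in the PRC1 i2KO libraries, against 49.4 and 49.7 CPM in the controls. PRC1 i2KO 1 was highest in B-type and PRC1 i2KO 2 in A-type counts. Gamma C genes held 49.4%, 55.2% and 47.9% of gamma counts in the PRC1 i2KO libraries, compared with 48.2% and 51.4% for Control libraries, a difference of 1.03 percentage points between group means.

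**Figure D4:**
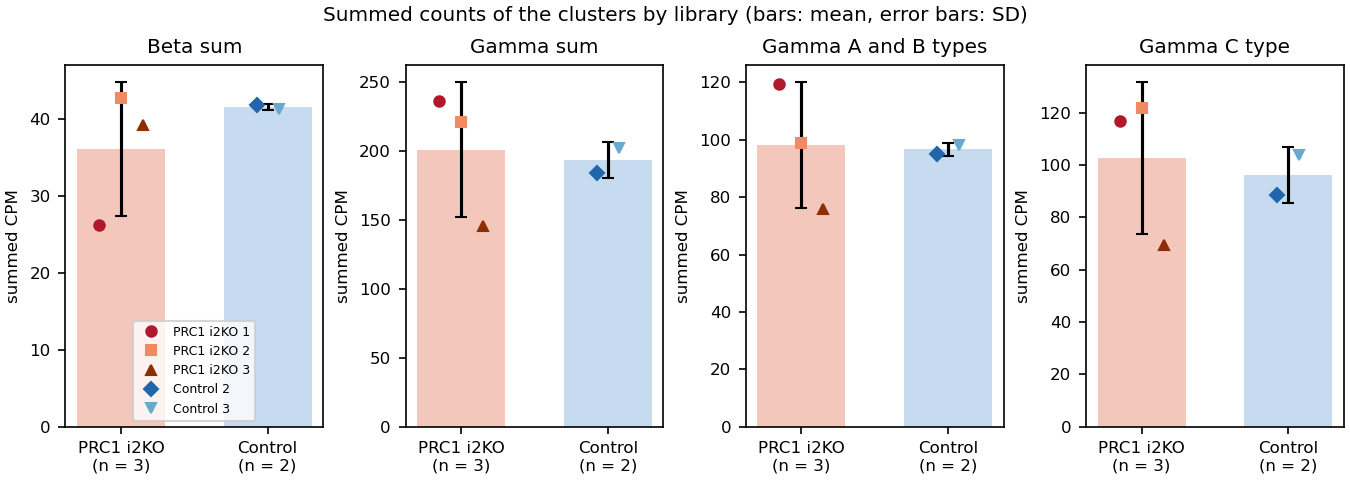
Summed CPM of the beta members, all gamma members, gamma A and B types and gamma C types in each library (points), with bars at the group means and error bars of 1 SD (n = 3 PRC1 i2KO and 2 Control). The gamma sums of the PRC1 i2KO libraries, 145 to 236 CPM, enclose the controls at 184 and 202 CPM, and the beta sum is lowest in PRC1 i2KO 1 at 26.3 CPM.

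The spread of the members within their groups was set beside that of all genes. The biological coefficient of variation, the relative spread that edgeR estimates beyond counting error, had a median of 69.8% over the 36 tested members and 50.7% over all genes tested. Spread falls with level, so each gene was also set against the fitted trend at its level. Of the members, 24 of 36 lay above the trend (9 of 16 beta and 15 of 20 gamma genes), beside 31.7% of all genes. Pcdhga10 stood at 148% where the trend was 56.0%, and Pcdhga11 at 72.1% where it was 43.5%. Pcdhgb1 lay under it, at 33.4% where the trend was 37.8%. By another count, 18 of 36 members had a highest library at least 10 times the lowest or a library at 0, beside 21.9% of all genes.

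**Figure D5:**
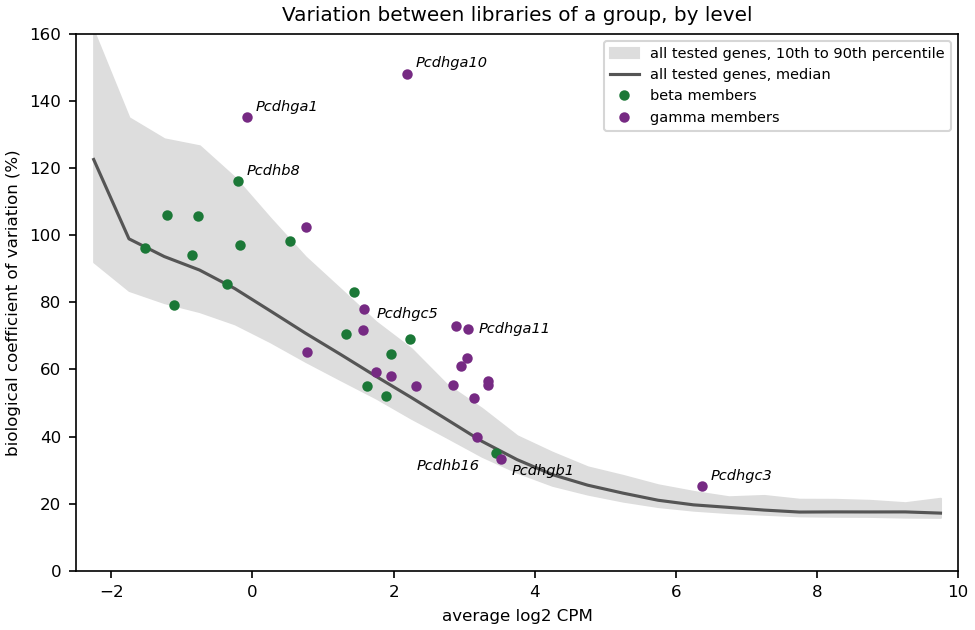
Biological coefficient of variation (percent, vertical axis) against average log2 CPM (horizontal axis) for the tested beta and gamma members, over the median and the 10th to 90th percentile of all tested genes. Pcdhga10 is the point farthest above the band, at 148%, and Pcdhb16, at 35.1%, lies near the line.

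Pairs of libraries show where the spread lay. Between the 2 controls, the median absolute log2 difference over the 36 members (0.5 CPM added) was 0.42, beside 0.42 over all genes. Between pairs of PRC1 i2KO libraries it was 1.32 (1 and 2), 0.97 (1 and 3) and 1.11 (2 and 3), beside 0.43 to 0.48 over all genes. Members more than 2-fold apart numbered 22, 18 and 20 of 36 in these pairs, beside 21.2%, 20.5% and 18.7% of all genes. In the control pair they numbered 7 of 36, beside 16.9% of all genes. Beta genes alone gave 0.78 to 0.97 within PRC1 i2KO and 0.41 within Control, and gamma genes 1.18 to 1.85 within PRC1 i2KO and 0.46 within Control. Between a PRC1 i2KO library and a control, the members' median was 0.60 to 1.41.

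Other settings for this were chosen after seeing the data. With 0.1 CPM added, the members' medians were 1.34 to 2.06 within PRC1 i2KO and 0.50 within Control. Among genes averaging 1 to 20 CPM, 26 members had medians of 1.11 to 2.11 within PRC1 i2KO, beside 0.55 to 0.63 over 10620 genes, and of 0.42 within Control, beside 0.53. Control 3, the shallowest library, is in the control pair, while Control 2 had more counts than PRC1 i2KO 1 and 3. Whether depth bears on the spread was not tested. With a single pair of controls, whether the spread differs between the groups was not tested. Of the 36 members, 13 were highest in PRC1 i2KO 2, 9 in PRC1 i2KO 1, 5 in PRC1 i2KO 3, 5 in Control 2 and 4 in Control 3. Over all genes tested the shares were 18.1%, 23.6%, 17.7%, 21.7% and 18.9% in the same order.

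Reads from constant exons belong to several members at once, and how they were divided bears on single alpha and gamma values. In GENCODE M21, 27.8% to 66.8% of a gamma member's exonic bases and 38.0% to 54.9% of an alpha member's also belong to another gene of the clusters. Of gamma values above 0.5 counts, 93.8% were not whole numbers (tolerance 0.001), as estimates that divide reads give. Over all features that share was 61.5%. For beta genes the shared part was 0, except 9.67% for Pcdhb21 and 6.88% for Pcdhb22, and 38.5% of their values were not whole. Beta genes are similar in sequence, so some of their reads can also be divided. Single gamma levels are therefore less certain than the gamma sums. The beta genes Pcdhb20 and Pcdhb17 have no shared exonic bases. Whether the division of reads bears on their wide ranges was not tested.

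Features that overlap the members were compared beside them. Gm26672, on the opposite strand across Pcdhga10, Pcdhgb7, Pcdhga11 and Pcdhga12, had 2.93, 15.2 and 7.09 CPM in the PRC1 i2KO libraries, against 15.5 and 7.38 CPM in the controls. It was lowest in PRC1 i2KO 1, where Pcdhga12 and Pcdhgb7 were also lowest and Pcdhga10 and Pcdhga11 highest. The use of strand in counting is not stated, so reads of these features cannot be told apart with certainty. The pseudogene Pcdhgb8 had 1.24, 2.91 and 0.411 CPM in the PRC1 i2KO libraries, against 5.32 and 1.82 CPM in the controls (edgeR adjusted p = 0.687). Taf7, a transcription factor subunit gene that stands between the beta and gamma clusters, had 8.71, 10.1 and 11.9 CPM in the PRC1 i2KO libraries, against 8.16 and 11.3 CPM in the controls. Its values overlapped between the groups and lay within 1.46-fold of each other.

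No regulator known to act at the clusters passed the test. Of 28 tested, 0 were called by edgeR or by DESeq2 in either direction, 0 passed an unadjusted p of 0.05, and the median log2 fold change was 0.03. Ctcf, which marks the promoters and enhancers that meet, had 70.5, 88.7 and 78.3 CPM in the PRC1 i2KO libraries, against 62.7 and 76.6 CPM in the controls. Smchd1, a repressor of the clusters in the mouse, had 72.7, 81.0 and 77.1 CPM in the PRC1 i2KO libraries, against 85.3 and 85.1 CPM in the controls. The DNA methyltransferase gene Dnmt3b, needed in the mouse for random promoter choice, had 6.87, 6.59 and 6.77 CPM in the PRC1 i2KO libraries, against 2.76 and 10.3 CPM in the controls. The edgeR adjusted p was 0.807 for Ctcf, 0.830 for Smchd1, 0.984 for Dnmt3b and 0.943 for Dnmt1. The smallest p in the list was that of Rest, a repressor of neuronal genes, with a log2 fold change of -0.47 and a standard error of 0.24 (edgeR adjusted p = 0.518).

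In the other lists, edgeR also called 0 genes in either direction. DESeq2 called 10 genes higher and 0 lower over all lists, the markers below included. Its fit held 149 of the listed genes, some of them without an adjusted p. Of the 21128 genes with a DESeq2 adjusted p, 3.57% were called higher and 0.786% lower. For the counts that follow, 7.43% of all genes tested by edgeR were higher and 3.51% lower at an unadjusted p under 0.05. Of 9 non-clustered protocadherins tested, 0 passed an unadjusted p of 0.05, at a median log2 fold change of 0.14. Cdhr1 had the smallest p (edgeR adjusted p = 0.518). The list of signalling partners had 3 of 20 genes higher and 0 lower at an unadjusted p under 0.05. Its leading gene, Ret, a receptor kinase that associates with clustered protocadherins, had 2.38, 4.04 and 5.06 CPM in the PRC1 i2KO libraries, against 0.650 and 0.555 CPM in the controls. Its log2 fold change was 2.65 ± 0.77 (SE; edgeR adjusted p = 0.251, DESeq2 adjusted p = 0.00709). Among 12 genes flanking or lying between the clusters, 1 was higher and 1 lower at an unadjusted p under 0.05. Hars, a histidine tRNA ligase gene, had 30.5, 30.5 and 37.3 CPM in the PRC1 i2KO libraries, against 15.5 and 16.3 CPM in the controls (edgeR adjusted p = 0.206, DESeq2 adjusted p = 0.00266). Fchsd1 was the lower one (edgeR adjusted p = 0.453). Of 11 classical cadherin and catenin genes, 1 was higher at that unadjusted p, Cdh11 (edgeR adjusted p = 0.355).

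Markers of other cells a sort could hold were summed per library, and their part in the protocadherin values was not tested. Fibroblast and dermal papilla markers summed to 4004 to 4379 CPM in PRC1 i2KO and 4365 and 4780 CPM in Control, most of it Postn, with 5 of 9 tested genes higher and 0 lower at an unadjusted p under 0.05. Of these Pdgfra had 32.5, 25.4 and 16.0 CPM in the PRC1 i2KO libraries, against 3.37 and 2.22 CPM in the controls (edgeR adjusted p = 0.0502, DESeq2 adjusted p = 2.07e-10). The collagen gene Col1a1 had 11.2, 19.7 and 7.88 CPM in the PRC1 i2KO libraries, against 3.41 and 2.94 CPM in the controls, and Vim had 5.68, 1.74 and 6.42 CPM, against 0.0203 and 0.555 CPM. Both were called higher by DESeq2 (adjusted p = 0.00333 and 0.00794) and not by edgeR (adjusted p = 0.215 and 0.287). Dcn stood at 3.13 CPM in PRC1 i2KO 3 and at 0.0917 and 0.158 CPM in PRC1 i2KO 1 and 2, against 0.162 and 0.0793 CPM in the controls. Another collagen gene, Col3a1, was at 0 in every library but PRC1 i2KO 2, which had 0.271 CPM, and Lum stayed at or below 0.158 CPM in PRC1 i2KO and 0.159 CPM in Control. Merkel cell markers summed to 17.6 to 24.0 CPM in PRC1 i2KO and to 2.05 and 2.06 CPM in Control, with 4 of 4 tested genes higher at that unadjusted p, led by Piezo2 (edgeR adjusted p = 0.0554). Piezo2 had 12.6, 14.5 and 17.0 CPM in PRC1 i2KO libraries, against 1.97 and 1.82 CPM in controls (DESeq2 adjusted p = 7.99e-12). In the same order, Krt8 had 3.35, 1.06 and 1.90 CPM, against 0.0203 and 0.0793 CPM (DESeq2 adjusted p = 0.00224). Isl1 had 0.871, 0.857 and 3.19 CPM, against 0 and 0 CPM (DESeq2 adjusted p = 0.00238). Sox2 had 0.596, 0.293 and 0.348 CPM, against 0 and 0 CPM. The untested Krt20, a defining keratin of Merkel cells, was at 0 in every library but PRC1 i2KO 2, which had 0.0677 CPM.

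Melanocyte markers summed to 82.8 to 127 CPM in PRC1 i2KO and 160 and 205 CPM in Control, nearly all of it Mitf, which was the 1 of 5 tested genes lower at an unadjusted p under 0.05 (edgeR adjusted p = 0.258). Tyrp1 and Sox10 were at 0 in both controls, but Pmel, Dct and Tyr had counts in every library. Mean CPM of Pmel, Dct and Tyr was 1.98, 2.11 and 0.714 in PRC1 i2KO, against 3.31, 3.31 and 1.43 in Control. The groups overlapped for each of these genes. Kit had the higher mean in PRC1 i2KO, 0.67 CPM against 0.159 CPM in Control, but the groups overlapped here too. It had 1.79, 0 and 0.221 CPM in PRC1 i2KO libraries, against 0 and 0.317 CPM in controls. Schwann and neural markers summed to 80.5 to 85.2 CPM in PRC1 i2KO and 68.0 and 73.0 CPM in Control, mostly Erbb3. Of 7 tested, 1 was lower at that unadjusted p, Syp (edgeR adjusted p = 0.449), and the neuronal marker Rbfox3 was at 0 in every library but PRC1 i2KO 1, which had 0.0917 CPM. Endothelial, mural and muscle markers summed to 218 to 251 CPM in PRC1 i2KO and 256 and 267 CPM in Control, mostly Cspg4, with 1 of 4 tested genes lower, Kdr (edgeR adjusted p = 0.425). Immune markers summed to 8.52 to 13.1 CPM in PRC1 i2KO and 6.42 and 10.7 CPM in Control, with 0 of 5 tested genes past that p, Cd3e having the smallest (edgeR adjusted p = 0.763). Of the 12 bulge markers, 1 was higher and 3 were lower at an unadjusted p under 0.05. Krt14 was higher, at 1322, 1431 and 971 CPM in PRC1 i2KO libraries against 695 and 832 CPM in controls (edgeR adjusted p = 0.240). The lower genes were Cd34, Lhx2 and Lgr5 (edgeR adjusted p = 0.422, 0.349 and 0.359). The sort marker Cd34 had 298, 292 and 164 CPM in PRC1 i2KO libraries, against 477 and 326 CPM in controls. In the same order, Lhx2 had 508, 559 and 409 CPM, against 659 and 718 CPM. Lgr5 had 322, 315 and 382 CPM, against 449 and 471 CPM. Single markers also stood high in single PRC1 i2KO libraries, such as Cd3e with 0, 115 and 0 counts in PRC1 i2KO 1, 2 and 3, against 1 and 4 counts in the controls.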

How the data were processed

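Polyadenylated RNA of sorted hair follicle stem cells was sequenced in 3 PRC1 i2KO and 2 Control samples, grouped by the genotype in the labels and numbered as in the sample titles. The authors deposited TPM and expected counts of each feature per sample in a single table. Tools named in the submitters' processing notes are RSEM 1.3.3, STAR 2.7.9a and DESeq2 1.38.2, with the build mm39. Their roles, and the use of strand in counting, are not given in the sources. Over all features, 61.5% of the deposited expected counts above 0.5 were not whole numbers (tolerance 0.001), and they were rounded for the tests. Deposited TPM values, scaled for length, were used to compare levels between genes and on a log2 scale after adding 1 or 0.1.

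The main test was the quasi-likelihood F test of edgeR 4.0.16 (R 4.3.3) with TMM scaling and no term but group, run on all 22181 genes that passed filterByExpr, with Benjamini-Hochberg adjustment at 0.05. CPM uses TMM-scaled library sizes, a fold change sets PRC1 i2KO over Control, and intervals of fold changes (95%) use the t distribution with edgeR's degrees of freedom. DESeq2 1.42.0 and limma 3.58.1 (voom, and log2 TPM) were alternatives, with other normalizations, no filter, protein-coding genes only, replicate blocks and each library left out. The test was checked on simulated counts with 200 changed genes. Their spread was drawn from the fitted trend, so the check does not show how the test does for members above that trend. Features were matched to GENCODE M21 and cluster order was taken from RefSeq, both of another build than the notes name, so no coordinates are given. Sums and shares over members got no test.

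The members and gene lists were chosen with earlier results of these data known. Named in full were members past the threshold in any tool, C-type genes, in each cluster the 5 highest by mean TPM, the 3 with the smallest p and the first and last gene. In the other lists, the gene with the smallest p and a few regulators were named. Leading genes of single libraries, Pcdhga5, Pcdhga7, Pcdhga10, Pcdhgb5, Pcdhgb6, Pcdhgb7, Pcdhb4 and Pcdhb21 among them, were named after their values were seen.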

Additional observations from a re-analysis of the deposited data

How the results depend on the processing

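Member calls changed under 2 of the alternatives. DESeq2 called 1 member lower (Pcdhb14, log2 fold change -1.95, adjusted p = 0.0250), and an edgeR fit with a replicate block by title called 1 lower (Pcdhga10). Over all genes, the higher calls numbered 28 by the edgeR fit, 754 by DESeq2, 4 by limma-voom, 140 without a filter, 54 with protein-coding genes only, 2 on log2(TPM + 1) and 13 on log2(TPM + 0.1). The lower calls numbered 0 by the edgeR fit, and 166, 0, 12, 6, 1 and 12 in the same order. Leaving out each library in turn gave 4 to 39 higher and 0 to 4 lower genes. The gene lists, 149 genes in the DESeq2 fit, had 10 higher calls by DESeq2. The cause of these differences was not tested.

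The median log2 fold change of the tested members was -0.07, and 0.20 by DESeq2, -0.51 by limma-voom, 0.19 without a filter, -0.15 with protein-coding genes only, -0.18 on log2(TPM + 1), -0.53 on log2(TPM + 0.1), and -0.29 to 0.24 with each library left out. DESeq2 and the fit without a filter held 49 members, and the main fit 36. Without Control 2 the fit held 43 members, and without Control 3 it held 44. On log2(TPM + 1) and log2(TPM + 0.1) the median of all genes itself was -0.19 and -0.33. The alpha sum's log2 ratio was 0.24 in TPM and 0.71 to 1.82 with each library left out, the beta sum's -0.34 to -0.02 and the gamma sum's -0.08 to 0.24.

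Of 17 named members, 10 kept their sign in every alternative. The signs of 7 turned, each with an edgeR adjusted p of 0.574 or more. By limma-voom the log2 fold change was 0.013 for Pcdhgc3, -0.29 for Pcdhgc5, 0.13 for Pcdhb17, -1.04 for Pcdhb20, -0.52 for Pcdhgb4 and -0.50 for Pcdhga1. On log2(TPM + 1) it was -0.18 for Pcdhb20 and -0.34 for Pcdhgb4, and on log2(TPM + 0.1) -0.13 for Pcdhgc5, -0.75 for Pcdhb20 and -0.57 for Pcdhgb4. With each library left out it ran from -0.38 to 0.17 for Pcdhgc3, -1.07 to 1.37 for Pcdhgc5, -0.92 to 0.94 for Pcdhb17, -1.40 to 0.70 for Pcdhb20, -1.05 to 0.58 for Pcdhgb4, -0.052 to 2.39 for Pcdhga11 and -0.67 to 7.83 for Pcdhga1.

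The sample numbers are not stated to pair the groups, and titles and descriptions number the controls differently. Deviations of samples with the same title number correlated at 0.06 and 0.04. A replicate block by title gave 140 higher and 25 lower genes, a member median of -0.21, and log2 fold changes of -1.22 for Pcdhgc5, 0.52 for Pcdhb17, -1.90 for Pcdhb20, -1.07 for Pcdhgb4 and -0.24 for Pcdhga11. A replicate block by description, chosen after seeing the data, gave 10 higher genes, a member median of -0.58, and 0.14 for Pcdhgc3 and -0.84 for Pcdhb20. A block uses only 4 libraries for the contrast. By title, PRC1 i2KO 1 has no control of its number and drops out. For Pcdhga10 that leaves 0 and 0 counts in PRC1 i2KO 2 and 3, against 181 and 104 in Control 2 and 3. The 235 counts of PRC1 i2KO 1 are then not used. Control 3, at 11626313 counts, limits what can be said of members under about 0.238 CPM.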
